A study of Mus musculus with 23 samples.

Results

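A set of 50 genes of the G2 phase and mitosis was followed in B cell lymphoma lines from Atm-deficient mice and in tumour-free mouse spleens. They formed a given list of G2/M genes and were matched to array probes through RefSeq accessions, and 49 of the 50 had a probe, the exception being the spindle midzone gene Prc1. All 49 were well above background in every sample and were tested among 13765 tested genes of 18217 genes with a probe. Prc1 thus had no level here and entered only the search of promoters. Mitotic entry is driven by cyclin B bound to the kinase Cdk1, after which condensin packs the chromosomes, motor proteins build the spindle and kinetochores attach to it. The spindle checkpoint holds back the anaphase-promoting complex until every kinetochore is attached, and that complex then marks cyclin B and securin for destruction so that separase can open the cohesin rings. RNA of most of these genes is made in G2 under the control of the MuvB complex with B-Myb and FoxM1, so in tissue it is widely used as a measure of how many cells are dividing.

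The samples were 9 lymphoma lines, 6 KO spleens and 7 WT spleens of mice on a mixed C57BL/6 x 129 background. Every animal and line lacked Cd3e, the T cell receptor component without which mature T cells do not form, so the controls carry that deletion too. The lines and the KO spleens also lacked Atm, a kinase that responds to broken DNA, and the WT spleens had it. The lines came from spleens with tumours and were grown in suspension culture, whereas the spleens were whole tissue and so a mixture of cell types. The purity of the lines was not tested. All 6 KO spleens were female, 4 of the 7 WT spleens were male and 3 were female, and the sex of the lines and all ages were not given in the sources used here. The submitters counted 10 lines, but 2 arrays carry the same animal number in their titles, and their mean entered as line 8. The labels name animals only by numbers in titles, so p-values measure the spread between these samples.

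Levels are log2 spot intensities relative to the 75th percentile of the array, so a level of 0 equals that percentile and a difference of 1 is a 2-fold difference. That percentile lay between 492 and 790 intensity units in the lymphoma arrays, 669 and 898 in the KO spleens and 570 and 830 in the WT spleens. The 6 slides mixed the groups except slide 1, which held lymphoma arrays only (lines 7, 8 and 9). Both Atm probes separated the genotypes without overlap, at -4.48 to -3.27 and -4.38 to -2.77 in the lines, -3.92 to -3.49 and -2.69 to -2.07 in the KO spleens, and -2.11 to -1.39 and -0.66 to 0.0027 in the WT spleens. Cd3e was at -3.30 to -1.22 in the lines and -4.65 to -3.86 in the spleens, with no animal carrying the gene for comparison, and the deleted parts of both genes were not given in the sources used here. The label of B cell lymphoma was checked against Cd79b, a chain of the B cell receptor, which was at 7.21 to 8.25 in the lines and 7.24 to 7.99 in the spleens. Of the 10 B cell markers listed, 3 were higher, 3 lower and 4 not called against the KO spleens. Of all tested genes 41.5% were higher and 28.9% lower. The log2 differences of the 10 markers ran from -10.6 to 0.90. Their mean level was 1.24 to 2.17 in the lines and 3.15 to 3.72 in the spleens. Neutrophil markers had a mean level between -8.71 and -5.10 in the lines and between 2.13 and 5.73 in the spleens. Of these 8 genes 0 were well above background in every line and 2 were so in no line. Their line means thus rest partly on values near background. Markers of blood precursors were likewise far lower in the lines, with 12 of 14 erythroid and 5 of 5 myeloid precursor genes lower than in the KO spleens, against 28.9% of all tested genes. Only 5 of the erythroid and 2 of the myeloid genes were well above background in every line.

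The promoters of these genes are shown first because they share short elements that the choice of members did not use. RefSeq windows of assembly GRCm38.p6, from 250 bases before to 50 bases after the transcription start, were listed for 42 of the 50 genes. They were searched on both strands for TTTGAA or TTCGAA, the core of the cell cycle genes homology region (CHR) through which MuvB binds, and for CCAAT, the box bound by NF-Y. A CHR-type match lay in 31 of 42 windows (73.8%), against 21.7% of the 27025 genes with a window and 16.9% of the tested genes with one. A CCAAT match lay in 30 of 42 (71.4%), against 41.1% of all genes. Both were present in 27 of 42 (64.3%), against 8.61% of all genes. In 27 of 42 genes a CHR-type match began within 40 bases of the start, which held for 5.2% of all genes. These are matches of letters and not measured sites.

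The 120 bases before the start are printed below for 7 genes with both elements in that stretch, for Ccnb1, which had CCAAT boxes and no CHR-type match, and for Pttg1, which had neither and did not pass the test in either lymphoma comparison. Sequences run 5′ to 3′ on the strand of the gene, and capitals mark CHR-type and CCAAT matches in either orientation.
Cdk1, chr10:69352913-69353032, minus strand: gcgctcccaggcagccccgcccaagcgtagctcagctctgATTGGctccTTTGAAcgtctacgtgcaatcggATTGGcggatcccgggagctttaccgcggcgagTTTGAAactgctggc
Cdc20, chr4:118437344-118437463, minus strand: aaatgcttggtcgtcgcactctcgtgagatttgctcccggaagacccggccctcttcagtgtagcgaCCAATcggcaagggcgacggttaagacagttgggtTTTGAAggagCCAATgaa
Ube2c, chr2:164769809-164769928, plus strand: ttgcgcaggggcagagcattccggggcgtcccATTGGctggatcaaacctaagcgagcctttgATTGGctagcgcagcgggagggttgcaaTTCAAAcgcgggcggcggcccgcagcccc
Espl1, chr15:102296173-102296292, plus strand: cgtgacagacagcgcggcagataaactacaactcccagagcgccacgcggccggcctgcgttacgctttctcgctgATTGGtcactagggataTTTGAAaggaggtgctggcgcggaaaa
Top2a, chr11:99024190-99024309, minus strand: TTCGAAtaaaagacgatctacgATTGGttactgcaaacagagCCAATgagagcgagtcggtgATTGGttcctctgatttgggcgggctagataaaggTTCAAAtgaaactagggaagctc
Kif11, chr19:37376262-37376381, plus strand: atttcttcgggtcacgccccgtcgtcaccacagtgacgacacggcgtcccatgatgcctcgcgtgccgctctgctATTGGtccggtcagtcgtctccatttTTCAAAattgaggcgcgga
Ect2, chr3:27153879-27153998, minus strand: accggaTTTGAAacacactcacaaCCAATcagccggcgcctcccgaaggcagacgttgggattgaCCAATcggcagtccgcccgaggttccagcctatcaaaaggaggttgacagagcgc
Ccnb1, chr13:100786487-100786606, minus strand: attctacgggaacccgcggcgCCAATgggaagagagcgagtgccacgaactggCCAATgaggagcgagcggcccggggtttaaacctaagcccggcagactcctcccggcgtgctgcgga
Pttg1, chr11:43425982-43426101, minus strand: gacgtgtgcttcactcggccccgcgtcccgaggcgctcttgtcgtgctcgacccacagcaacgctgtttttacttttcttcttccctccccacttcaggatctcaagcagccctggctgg

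**Figure D1:**
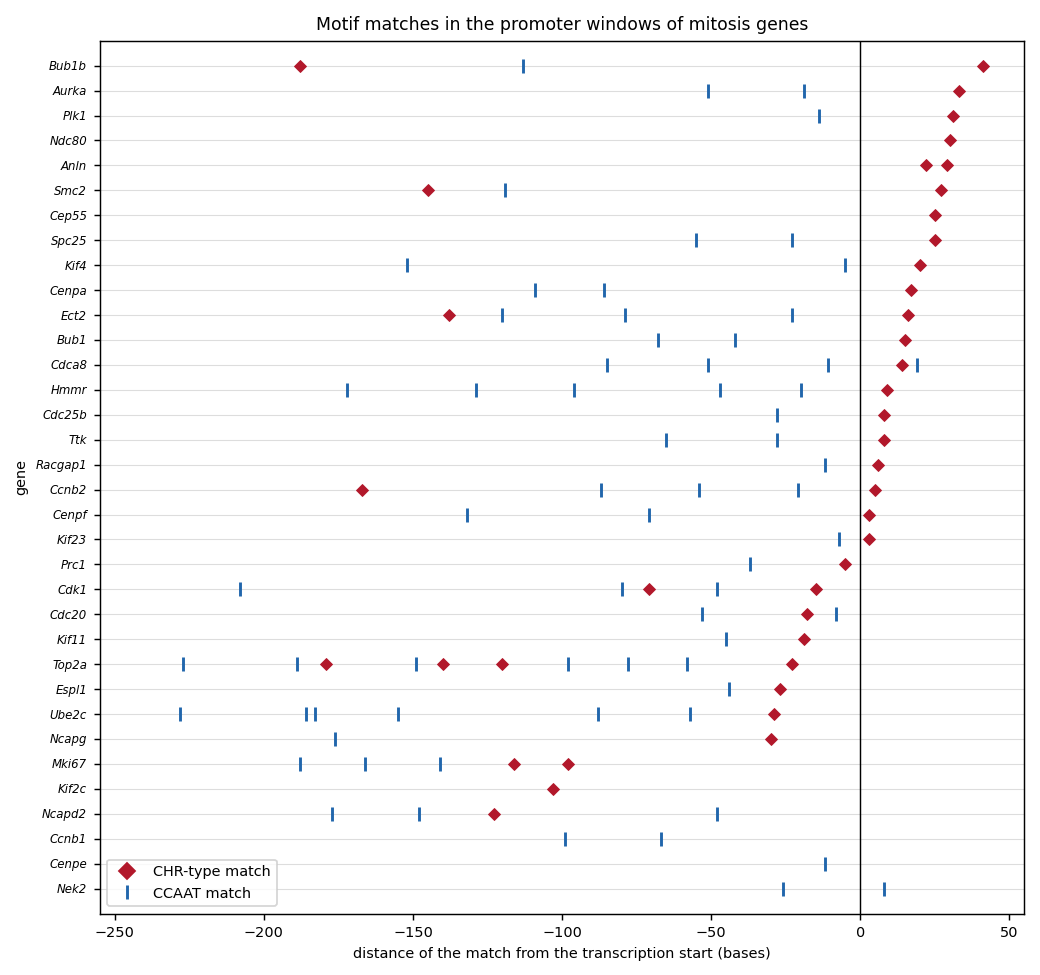
Positions of CHR-type matches (red diamonds) and CCAAT matches (blue bars) relative to the transcription start (x axis, bases) for the 34 genes with a match (y axis). Of the windows of a gene with a match, the one with the lowest genomic coordinate is drawn. For Ect2 this is not the window printed above. Most CHR-type matches begin close to the start, and CCAAT matches lie mainly upstream of them.

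Neither element was found in 8 of the 42 listed genes, namely Birc5, Mad2l1, Melk, Mybl2, Ncaph, Nuf2, Nusap1 and Pttg1. Between lymphoma lines and KO spleens the median log2 difference was 2.11 over the 30 tested genes with a CHR-type match and 2.16 over the 11 without. It was 2.15 over the 29 tested genes with CCAAT and 1.96 over the 12 without.

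The lymphoma lines carried more RNA of nearly the whole set than either group of spleens. Against the KO spleens 45 of 49 genes were higher, 0 were lower and 4 did not pass the test (limma, adjusted p below 0.05), where 41.5% of all tested genes were higher and 28.9% lower. The median log2 difference was 2.14 over the 49 genes and 0.18 over all tested genes. Of the 49, 44 were at least 2-fold higher, against 17.9% of all genes. Against the WT spleens 47 of 49 were higher and 0 lower, with 40.3% of all genes higher and 30.9% lower, and the median difference was 2.73, against 0.14 for all genes. At least 2-fold higher were 46, against 19.1% of all genes. Both comparisons use the same 9 lines. Centring the arrays on their median in place of the 75th percentile raised the median of all genes to 0.77 against the KO spleens, with 8452 genes higher and 2604 lower in place of 5716 and 3975, and to 0.71 against the WT spleens, with 8289 and 2740 in place of 5543 and 4256.

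Every line lay above the highest KO spleen in 37 of 49 genes, against 24.0% of all tested genes, and above the highest WT spleen in 43 of 49, against 23.8%. The mean level of the 49 genes was between 1.88 and 3.44 in the lines with a median of 2.78. It was between 0.31 and 1.25 in the KO spleens with a median of 0.84, and between -0.33 and 0.99 in the WT spleens with a median of 0.04. The lowest line was thus above the highest spleen, while the KO and WT spleens overlapped. In these bulk samples a smaller share of dividing cells and less mitotic RNA per cell cannot be told apart. Within single slides, which hold 1 or 2 samples of a group, the median difference from the KO spleens was 2.01, 0.90, 2.81, 2.28 and 1.68 on slides 2 to 6, and from the WT spleens 3.01, 0.89, 2.90, 2.62 and 3.09. Slide 3 gave the smallest values of both, and it held line 2, the lowest line, and WT spleen 2, the highest WT spleen.

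**Figure D2:**
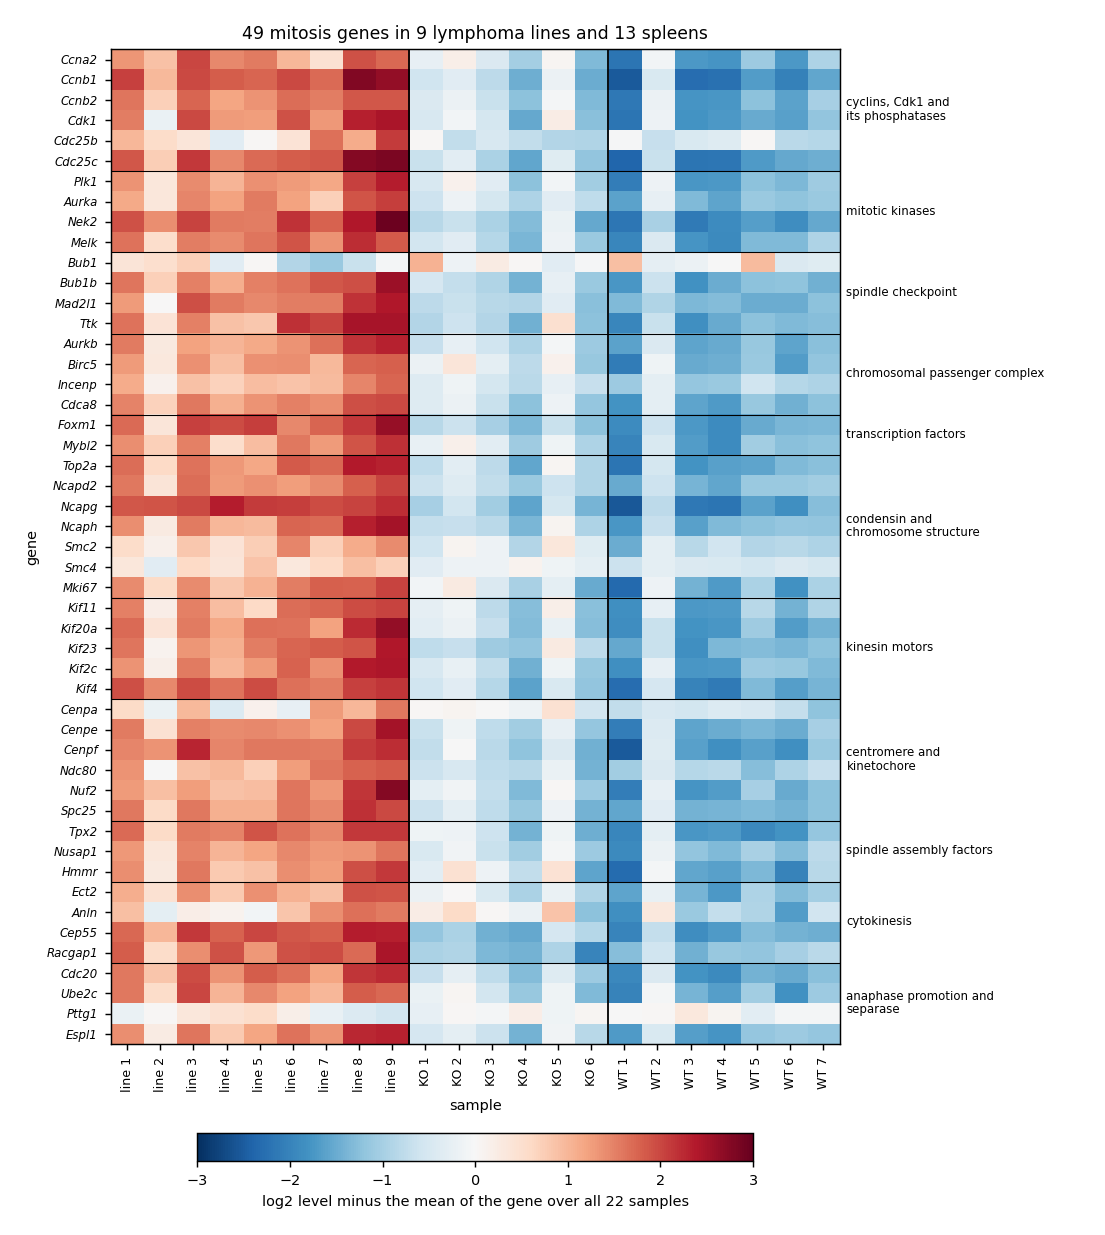
Log2 levels of the 49 genes (rows, grouped by role) in 9 lymphoma lines, 6 KO spleens and 7 WT spleens (columns), each gene relative to its mean over the 22 samples. The lines are above the spleens in nearly all rows, Bub1 and Pttg1 do not follow that pattern, line 2 is the palest of the lines, and WT spleen 2 stands above the other WT spleens.

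The cyclins and the Cdk1 system were higher in all 6 genes against both groups of spleens. Ccnb1, the cyclin that activates Cdk1 for mitosis, had a level between 1.91 and 3.73 in the lines (median 2.92), between -0.54 and 0.77 in the KO spleens (median 0.25) and between -1.58 and 0.48 in the WT spleens (median -1.09). No line overlapped a spleen. It was 6.80-fold higher than in the KO spleens (log2 difference 2.77 ± 0.30 SE, limma adjusted p = 4.37e-08), the largest of this group, and 13.8-fold higher than in the WT spleens (adjusted p = 1.23e-10). Cdk1 itself was at 0.68 to 3.33 in the lines (median 2.42), -0.65 to 1.11 in the KO spleens (median 0.37) and -1.29 to 0.74 in the WT spleens (median -0.74). Only line 2, at 0.68, fell inside the spleen range, since the other lines began at 2.14. Cdk1 was higher by 2.15 ± 0.36 against the KO spleens (adjusted p = 1.94e-05). Ccna2, the cyclin of S and G2 phase, and Ccnb2, the other mitotic B-type cyclin, were higher by 1.83 and 2.14. Of the phosphatases that switch Cdk1 on, Cdc25c was higher by 2.74, and Cdc25b had the smallest difference of the group at 1.38 ± 0.29 (adjusted p = 2.38e-04). Cdc25b ranged from 3.39 to 5.83 in the lines and from 2.82 to 3.77 in the 13 spleens, so the groups overlapped.

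All 4 mitotic kinases were higher in the lines. Plk1, which acts from mitotic entry to cytokinesis, was at 2.90 to 4.92 in the lines (median 3.91), 1.32 to 2.69 in the KO spleens (median 2.15) and 0.48 to 2.40 in the WT spleens (median 1.22). Its lowest line was just above its highest spleen, and the difference from the KO spleens was 1.88 ± 0.30 (adjusted p = 7.75e-06). Nek2, a kinase of centrosome separation, was at 1.94 to 3.5 in the lines (median 2.46), -0.98 to 0.36 in the KO spleens (median -0.34) and -1.62 to -0.43 in the WT spleens (median -1.3). No line overlapped a spleen, and Nek2 had the largest difference of the kinases at 2.88 ± 0.24 against the KO spleens (7.37-fold, adjusted p = 4.71e-10). Aurka, the Aurora kinase of the spindle poles, was at 3.42 to 5.17 in the lines (median 4.3), 2.15 to 2.94 in the KO spleens (median 2.52) and 1.47 to 2.84 in the WT spleens (median 1.88). Its lines were also above all spleens, and its difference was the smallest at 1.84 ± 0.24 (3.58-fold). Melk, a kinase of dividing cells, was higher by 2.29.

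Of the 4 spindle checkpoint genes, 3 were higher against both groups of spleens. Bub1b, which encodes the checkpoint protein BubR1, was at 1.03 to 2.87 in the lines (median 1.92), -1.11 to 0.07 in the KO spleens (median -0.49) and -1.51 to -0.33 in the WT spleens (median -1.12). It had the largest difference at 2.41 ± 0.23 against the KO spleens (adjusted p = 7.77e-09), and no line overlapped a spleen. Mad2l1, the inhibitor of Cdc20, was higher by 2.34 and Ttk, the kinase also called Mps1, by 2.36. Ttk levels were -3.33 to -1.25 in the lines (median -2.09), -5.17 to -3.24 in the KO spleens (median -4.61) and -5.68 to -4.4 in the WT spleens (median -5.06). The lowest line fell within the range of the KO spleens.

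Bub1, the kinase that brings the other checkpoint proteins to the kinetochore, was the exception, and its 2 probes gave different results. The probe with the higher mean, which stands for the gene in the counts above, was at -0.97 to 0.86 in the lines (median 0.09), -0.19 to 1.19 in the KO spleens (median 0.14) and -0.29 to 1.1 in the WT spleens (median -0.04). The groups overlapped throughout, and the difference from the KO spleens was -0.29 ± 0.30 (adjusted p = 0.393). By this probe the 3 spleens on slide 2 stood apart at 1.05 to 1.19, and the 10 others were at or below 0.38. The other Bub1 probe was at 0.76 to 2.39 in the lines (median 1.83), -1.34 to -0.03 in the KO spleens (median -0.59) and -2.03 to -0.19 in the WT spleens (median -1.65), with no overlap between lines and spleens. In a fit of all 20287 tested probes, added after the disagreement was seen, that probe was higher in the lines by 2.48 ± 0.28 against the KO spleens (adjusted p = 6.32e-08) and by 3.22 ± 0.26 against the WT spleens (adjusted p = 4.07e-10). With the mean of both probes Bub1 was higher by 1.09 ± 0.19 (adjusted p = 2.67e-05), and with median centring the first probe alone had a difference of 0.30 (adjusted p = 0.406). Bub1 was the exception among the 20 members with more than 1 tested probe whose probes differed by over 0.7 log2 units in this comparison. In the fit of single probes 70 of the 74 probes of all members were called higher against the KO spleens. The share of all probes called there was not counted, and by gene it was 41.5%.

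**Figure D3:**
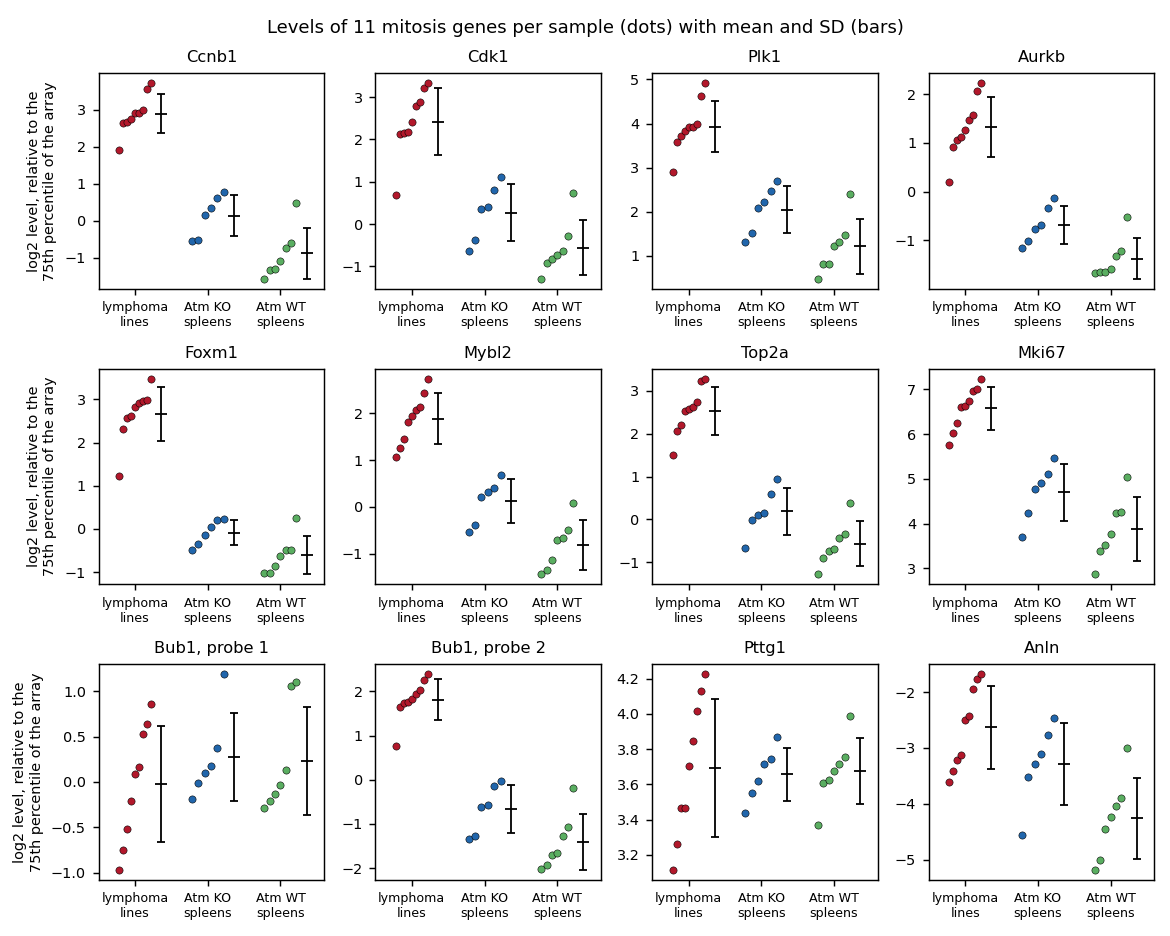
Log2 level of 11 genes (y axis, relative to the 75th percentile of the array) in each sample, with Bub1 shown by both of its probes; dots are samples of the group on the x axis, and bars give the mean and SD. The lines lie above the spleens for the 8 genes of the upper panels apart from line 2 for Cdk1, the Bub1 probes disagree, and Pttg1 and Anln overlap between groups.

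The chromosomal passenger complex, which corrects wrong attachments and then guides cytokinesis, was higher in all 4 of its genes. Aurkb, its kinase, was at 0.20 to 2.24 in the lines (median 1.28), -1.17 to -0.13 in the KO spleens (median -0.72) and -1.68 to -0.52 in the WT spleens (median -1.59). The lines did not overlap the spleens, and the difference from the KO spleens was 2.01 ± 0.26 (4.03-fold, adjusted p = 4.73e-07). Cdca8, the borealin subunit, had the largest difference of the complex at 2.07, with levels of 4.97 to 6.26 in the lines (median 5.78), 3.05 to 4.14 in the KO spleens (median 3.74) and 2.48 to 3.99 in the WT spleens (median 2.83). Incenp, the scaffold, had the smallest at 1.44 ± 0.19 (2.72-fold), with levels of 5.24 to 6.84 in the lines (median 6.03), 4.28 to 4.97 in the KO spleens (median 4.65) and 3.95 to 4.81 in the WT spleens (median 4.18). Both were free of overlap between lines and spleens. Birc5, which encodes survivin, was higher by 1.56.

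Both transcription factors of the G2/M programme were higher. Foxm1 was at 1.23 to 3.48 in the lines (median 2.83), -0.48 to 0.23 in the KO spleens (median -0.04) and -1.03 to 0.24 in the WT spleens (median -0.63). Its lowest line was above every spleen, and the difference from the KO spleens was 2.74 ± 0.25 (6.66-fold, adjusted p = 3.88e-09). Mybl2, which encodes B-Myb, was at 1.07 to 2.74 in the lines (median 1.95), -0.52 to 0.68 in the KO spleens (median 0.27) and -1.44 to 0.10 in the WT spleens (median -0.71). It was also free of overlap, with a difference of 1.76 ± 0.27 (adjusted p = 4.74e-06).

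All 7 genes of chromosome structure were higher against both groups of spleens, though by very different amounts. Ncapg, the condensin I subunit CAP-G, had the largest difference of the whole set at 3.07 ± 0.21 against the KO spleens (8.38-fold, adjusted p = 3.35e-11) and 3.83 ± 0.20 against the WT spleens (14.2-fold). Its 9 lines lay close together, between 4.85 and 5.34, while the KO spleens were at 1.41 to 2.46 and the WT spleens at 0.43 to 2.19. Smc4, an ATPase core subunit of condensin, had the smallest called difference at 0.64 ± 0.14 (1.56-fold, adjusted p = 4.03e-04), which was 0.17 and not called under quantile normalisation (adjusted p = 0.276). Smc4 was at 3.94 to 5.18 in the lines and 3.94 to 4.38 in the KO spleens, so they overlapped. Top2a, the topoisomerase that untangles sister DNA, was at 1.5 to 3.29 in the lines (median 2.58), -0.66 to 0.95 in the KO spleens (median 0.13) and -1.28 to 0.38 in the WT spleens (median -0.68). It showed no overlap and a difference of 2.34 ± 0.28 (adjusted p = 1.49e-07). Mki67, the Ki-67 antigen that coats mitotic chromosomes, was at 5.77 to 7.24 in the lines (median 6.62), 3.70 to 5.47 in the KO spleens (median 4.84) and 2.86 to 5.05 in the WT spleens (median 3.77). Here too the lines were above all spleens, by 1.88 ± 0.31 over the KO spleens (adjusted p = 1.26e-05). The condensin genes Ncapd2 and Ncaph were higher by 2.15 and 2.23, and Smc2, the partner of Smc4, by 1.08.

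The 5 mitotic kinesins were all higher. Kif4, a chromosome-bound motor, was at 3.13 to 3.82 in the lines (median 3.61), 0.07 to 1.34 in the KO spleens (median 0.96) and -0.59 to 1.18 in the WT spleens (median 0.04). Kif11, the motor that pushes spindle poles apart, was at -1.35 to 0.46 in the lines (median -0.04), -2.83 to -1.39 in the KO spleens (median -2.09) and -3.39 to -1.81 in the WT spleens (median -2.97). Every line was above every spleen for both. Kif4 had the largest difference at 2.65 ± 0.23 against the KO spleens (6.28-fold) and Kif11 the smallest at 1.94 ± 0.31 (3.83-fold). Kif20a and Kif23, motors of the midzone, were higher by 2.24 and 2.21, and Kif2c, a microtubule depolymerase at centromeres, by 2.17.

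Of the 6 centromere and kinetochore genes, 5 were higher against the KO spleens and 6 against the WT spleens. Cenpf, a kinetochore protein of G2 and mitosis, was at 3.25 to 4.18 in the lines (median 3.48), 0.47 to 1.9 in the KO spleens (median 1.13) and -0.61 to 1.52 in the WT spleens (median 0.26). The lines were above all spleens, and Cenpf had the largest difference from the KO spleens at 2.50 ± 0.26 (adjusted p = 2.48e-08). Cenpe, the kinetochore motor, was higher by 2.16. The NDC80 complex, which grips microtubules, was higher in the 3 subunits listed, with 1.88 for Ndc80, 2.04 for Nuf2 and 2.19 for Spc25. Cenpa, the histone H3 variant of centromeres, was at -0.11 to 1.86 in the lines (median 0.87), -0.28 to 0.75 in the KO spleens (median 0.31) and -0.92 to -0.11 in the WT spleens (median -0.25). The lines overlapped the KO spleens, with a difference of 0.55 ± 0.27 that did not pass the test (adjusted p = 0.072), and lay just above every WT spleen, by 1.17 ± 0.25 (adjusted p = 3.07e-04). With median centring the difference from the KO spleens was 1.14 and passed (adjusted p = 6.35e-04).

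The 3 spindle assembly factors were higher, from 1.61 ± 0.35 for Hmmr, a spindle-associated hyaluronan receptor, to 2.27 ± 0.28 for Tpx2, the activator of Aurora A. Nusap1, a microtubule bundler, was higher by 1.80. Tpx2 was at 1.9 to 3.44 in the lines (median 2.96), -0.14 to 1.2 in the KO spleens (median 0.94) and -0.63 to 1.02 in the WT spleens (median -0.42), with no overlap of lines and spleens. Hmmr was at -0.13 to 1.7 in the lines (median 0.96), -2.01 to 0.03 in the KO spleens (median -0.65) and -2.73 to -0.47 in the WT spleens (median -1.99), and its lowest line fell within the range of the KO spleens. In cytokinesis 3 of 4 tested genes were higher against the KO spleens and 4 against the WT spleens. Cep55, which recruits the abscission machinery, was at 1.19 to 2.55 in the lines (median 2.05), -1.35 to -0.31 in the KO spleens (median -0.85) and -1.78 to -0.52 in the WT spleens (median -1.27). The lines did not overlap the spleens. Cep55 was higher by 2.96 ± 0.21 (7.76-fold, adjusted p = 4.48e-11), and Racgap1, a subunit of centralspindlin, by 2.93. Ect2, the exchange factor that centralspindlin recruits, was higher by 1.65. Anln, the contractile ring scaffold anillin, was at -3.61 to -1.68 in the lines (median -2.49), -4.56 to -2.47 in the KO spleens (median -3.20) and -5.18 to -3.0 in the WT spleens (median -4.23). Its lines overlapped both groups. The difference was 0.65 ± 0.37 against the KO spleens (adjusted p = 0.121) and 1.62 ± 0.35 against the WT spleens (adjusted p = 3.05e-04). The latter was 0.32 and not called with normexp background correction (adjusted p = 0.445). Against the KO spleens Anln was called higher with median centring (1.24, adjusted p = 0.0045) and quantile normalisation (1.05, adjusted p = 0.016). In the limma fit of single probes its other, dimmer probe was also called higher there (0.77 ± 0.33, adjusted p = 0.041).

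Among the genes of anaphase the activators and the protease were higher and the inhibitor was not. Cdc20, which activates the anaphase-promoting complex, was at 4.79 to 6.19 in the lines (median 5.61), 2.67 to 3.7 in the KO spleens (median 3.23) and 2.04 to 3.54 in the WT spleens (median 2.44). All lines were above all spleens, and Cdc20 was higher by 2.38 ± 0.24 against the KO spleens (5.22-fold, adjusted p = 1.29e-08). Ube2c, its ubiquitin-conjugating enzyme, was higher by 1.92 and Espl1, which encodes separase, by 2.06. Pttg1, which encodes securin, the inhibitor of separase, was at 3.12 to 4.23 in the lines (median 3.70), 3.44 to 3.87 in the KO spleens (median 3.67) and 3.37 to 3.99 in the WT spleens (median 3.68). The medians lay close together, and the groups overlapped. The differences were 0.035 ± 0.15 from the KO spleens (95% interval -0.28 to 0.35, adjusted p = 0.848) and 0.016 ± 0.14 from the WT spleens (-0.28 to 0.32, adjusted p = 0.930). These signs depend on the scaling, since quantile normalisation gave -0.35 and -0.37, both called lower (adjusted p = 0.033 and 0.020), and median centring 0.62 and 0.59, both called higher. Pttg1 was measured by a single probe.

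**Figure D4:**
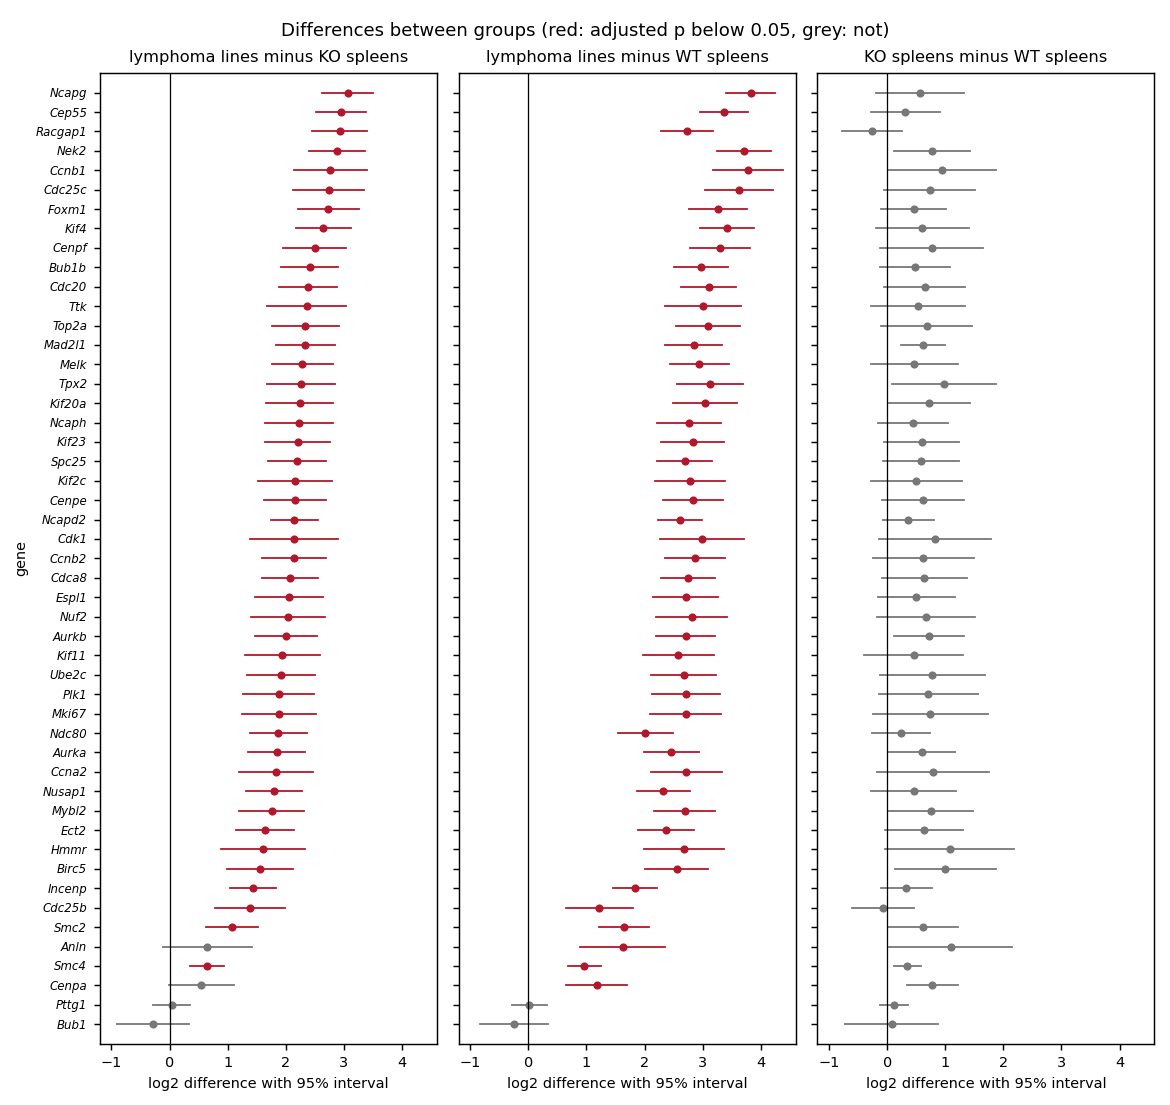
Log2 difference with its 95% interval (x axis) of each of the 49 genes (y axis, ordered by the first panel) for lymphoma lines minus KO spleens, lymphoma lines minus WT spleens, and KO minus WT spleens with a term for sex. Red marks adjusted p below 0.05: 45, 47 and 0 genes in the 3 panels.

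The lines differed among themselves mostly as a block. Line 2 was the lowest of the 9 in 41 of 49 genes, line 9 the highest in 33 and line 8 in 9. Their mean levels over the 49 genes were 1.88, 3.44 and 3.26, and the other 6 lines were at 2.44 to 2.87. Even so, line 2 was above the highest KO spleen in 38 genes and above the highest WT spleen in 44. Lines 7, 8 and 9 shared slide 1, where line 7 had a mean of 2.72. Line 2 was the only line on slide 3, and lines 1, 3 and 6 were also the only lines on their slides. Between lines of different slides the line and the slide cannot be told apart. The 2 arrays of line 8 differed by a median of 0.51 over the 49 genes, with 1.44 as the largest difference, against 0.33 over all genes. The SD over the 9 lines had a median of 0.53 for the 49 genes and 0.44 for all tested genes. It was largest for Cdk1 (0.79), Cdc25b (0.78) and Ttk (0.76) and smallest for Ncapg (0.16), Kif4 (0.25) and Cenpf (0.36). Ncapg, with the smallest spread over lines, had an SD of 0.43 over the KO spleens and 0.60 over the WT spleens.

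The spleens address how far the set differs by Atm genotype without a tumour. No gene of the 49 passed the test in either direction (limma with terms for genotype and sex, 0 higher and 0 lower), where 1.64% of all tested genes were higher and 2.16% lower in KO spleens. At an unadjusted p below 0.05, 13 of 49 were higher and 0 lower, against 7.79% and 12.6% of all genes. The log2 difference was above 0 in 47 of 49 genes, against 41.4% of all genes, with a median of 0.62 against -0.05. The exceptions were Racgap1 at -0.26 and Cdc25b at -0.07. By its other probe Racgap1 differed by 0.090 ± 0.26 (limma fit of single probes, adjusted p = 0.887). With normexp background correction 41 of the 49 differences were above 0 and 8 had the opposite sign to that given here. The 49 genes are not independent in these counts. WT spleen 2 was the highest WT spleen in 45 of them and WT spleen 1 the lowest of all 13 spleens in 35. Because all KO spleens were female, this fit sets the 6 KO spleens against the 3 female WT spleens, and the male spleens bear only on the sex term and the spread. No gene of the 49 separated all KO from all WT spleens, against 2.22% of all genes higher and 2.09% lower without overlap. Between male and female spleens 0 of 49 genes passed in either direction, against 0.0509% of all genes higher and 0.632% lower, and at an unadjusted p below 0.05 the count was 0 as well, against 2.43% higher and 8.06% lower.

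The 4 genes with the lowest p were Cenpa, Mad2l1, Smc4 and Nek2. Cenpa was at -0.28 to 0.75 in the KO spleens and -0.92 to -0.11 in the WT spleens, and only KO spleen 6, at -0.28, lay within the WT range. The difference was 0.77 ± 0.20 (adjusted p = 0.056). Mad2l1 was at -0.52 to 0.40 in the KO spleens and -0.76 to -0.17 in the WT spleens, with a difference of 0.62 ± 0.17 (adjusted p = 0.069). Smc4 was at 3.94 to 4.38 and 3.62 to 3.98, and differed by 0.35 ± 0.11 (adjusted p = 0.100). Nek2 was at -0.98 to 0.36 and -1.62 to -0.43, and differed by 0.77 ± 0.30 (adjusted p = 0.172). In each of the 4 the ranges of the genotypes overlapped at their edges. Without KO spleen 6, Cenpa (0.88) and Mad2l1 (0.71) passed (adjusted p = 0.018 and 0.022). Without the sex term 5 genes passed, namely these 4 and Mybl2, and with slide as a random block Cenpa alone did.

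The largest differences between the genotypes had wide errors. Anln differed by 1.09 ± 0.49 (adjusted p = 0.232), Hmmr by 1.07 ± 0.51 (adjusted p = 0.259) and Birc5 by 1.0 ± 0.40 (adjusted p = 0.185). The Anln value rests on its main probe. By its other probe, well above background in 4 KO and 4 WT spleens, Anln differed by -0.086 ± 0.53 (limma fit of single probes, adjusted p = 0.951). For Mki67 the difference was 0.74 with a 95% interval from -0.25 to 1.73, and for Cdk1 0.83 with an interval from -0.14 to 1.79. These intervals hold both no difference and a 2-fold one. Within slides the median over the 49 genes was 1.05, -0.04, 0.18, 0.32 and 1.53 on slides 2 to 6, with 48, 18, 40, 45 and 46 genes above 0. The direction thus turned on slide 3, which held WT spleen 2. Slides 3 and 6 held only a male WT spleen beside female KO spleens, slides 2 and 4 a WT spleen of each sex and slide 5 a female one, so on all but slide 5 sex is part of these values. Sex and genotype cannot be told apart on slides 3 and 6. In the fit with sex and with slide as a fixed term the median was 0.26 and 0 genes passed.

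The set varied strongly within each genotype. The SD had a median of 0.47 over the KO spleens, against 0.23 for all tested genes, and of 0.52 over the WT spleens, against 0.21. KO spleen 5 was the highest KO spleen in 26 genes and KO spleen 2 in 19, and KO spleens 4 and 6 were the lowest in 26 and 20. WT spleen 2, a male, was the highest WT spleen in 45 of 49 genes, with a mean of 0.99, above KO spleens 1, 3, 4 and 6. WT spleen 1, also male, was the lowest of all 13 spleens in 35 genes. The 3 female WT spleens were at 0.04 to 0.30.

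Markers of blood precursors varied across the same spleens. The mean level of 14 erythroid precursor genes, which include globins and the factors Gata1 and Klf1, was 2.95, 3.35, 2.73, 2.25, 2.62 and 0.38 in KO spleens 1 to 6, whose means of the mitosis genes were 0.92, 1.16, 0.76, 0.31, 1.25 and 0.31. It was 0.35, 2.64, 1.84, 1.66, 1.76, 0.35 and 2.21 in WT spleens 1 to 7, whose mitosis means were -0.33, 0.99, -0.10, -0.08, 0.26, 0.04 and 0.30. WT spleen 2 was thus the highest WT spleen by both measures. WT spleen 1 was the lowest by the mitosis genes, but by the erythroid genes it was level with WT spleen 6, whose mitosis mean was 0.04. KO spleen 4 and WT spleen 7 had erythroid levels above 2 with mitosis means near 0.3. The mean of 5 myeloid precursor genes, among them Mpo and Elane of immature granulocytes, was 1.59, 1.56, 0.87, -0.91, 2.64 and 0.52 in the KO spleens and -1.55, 2.92, -1.02, -0.12, -0.44, -0.03 and 0.27 in the WT spleens. KO spleen 5 and WT spleen 2 were the highest of their genotype by this mean and by the mitosis genes alike. Other lists varied too. The neutrophil mean was also highest in KO spleen 5 (5.23) and WT spleen 2 (5.73), and the B cell mean was lowest there (3.17 and 3.15). The pro-B and pre-B cell mean was highest of the WT spleens in WT spleen 2 (2.19) and lowest of the KO spleens in KO spleens 4 and 6 (0.99 and 0.81). The NK cell mean was instead highest in KO spleen 6 (1.15) and WT spleen 6 (1.57).

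Between genotypes all 14 erythroid and 5 of 5 myeloid precursor genes had log2 differences above 0, against 41.4% of all genes. Their medians were 1.04 and 1.1, and 0 of either list passed the test, against 1.64% of all genes higher. The 8 neutrophil genes were likewise all above 0, with a median of 0.85, and 0 passed. Unadjusted p was below 0.05 for 3 erythroid and 0 myeloid genes, all higher in KO spleens, against 7.79% of all genes. Of 6 plasma cell genes 3 were higher in KO spleens (Jchain, Prdm1 and Tnfrsf17), and of 5 tested pro-B and pre-B cell genes 1 was, Dntt, the enzyme that adds nucleotides at antigen receptor joints. Of 6 NK cell genes 3 were lower in KO spleens, with a median of -0.76, against 2.16% of all genes lower. The part of these cells in the levels of the mitosis genes was not tested. In the lines the erythroid and myeloid precursor means were far lower, at -5.04 to -3.65 and -5.98 to -5.07, while the mitosis genes were at their highest. Both of these line means rest partly on genes not well above background in every line.

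**Figure D5:**
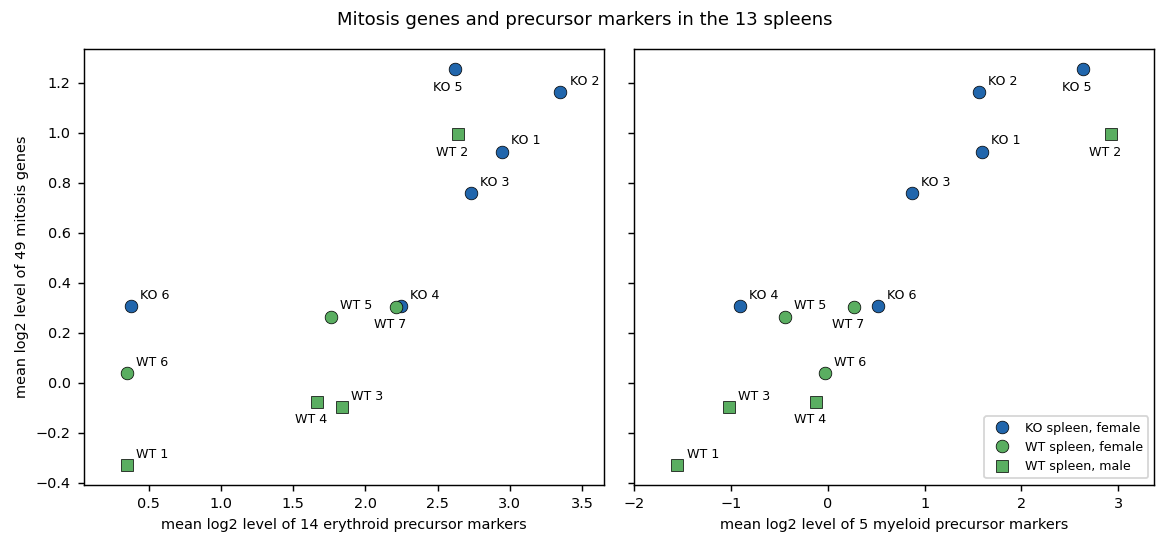
Mean log2 level of the 49 mitosis genes (y axis) against the mean log2 level of 14 erythroid precursor markers (left) and 5 myeloid precursor markers (right) in the 13 spleens, coloured by genotype and with the sex given by the symbol. WT spleen 2, with a mitosis mean of 0.99, lies at 2.64 on the erythroid axis, within the KO range, and at 2.92 on the myeloid axis, above the highest KO spleen at 2.64, and WT spleen 1 is lowest at -0.33.

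A further 108 genes of mitosis outside the set were looked up, of which 102 were tested. In the lines 87 were higher and 4 lower than in the KO spleens, with a median of 1.07, where 41.5% of all tested genes were higher and 28.9% lower. Against the WT spleens 83 were higher and 6 lower, with a median of 1.23, where the shares of all genes were 40.3% and 30.9%. The counts by list that follow are against the KO spleens and stand beside the same 41.5% and 28.9%. Among kinetochore and checkpoint genes 27 of 29 were higher, led by Ska1 (3.53 ± 0.39) and Ska3 (3.21 ± 0.30) of the complex that couples kinetochores to microtubule ends. In the list of other kinesins and spindle proteins 14 of 16 were higher, led by Psrc1 (3.28) and Kntc1 (2.54). Kntc1 encodes a kinetochore protein of the checkpoint, though it was placed in this list. Haus8, an augmin subunit, was lower by 0.55 log2 units (log2 difference -0.55, adjusted p = 3.55e-04).

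Of 16 further genes of the anaphase-promoting complex and its regulators 14 were higher and 5 of them at least 2-fold, with a median of 0.57, and the largest differences were those of the E2 enzyme Ube2s (2.52) and the inhibitor Fbxo5 (1.51). Of 14 cohesin genes 11 were higher, led by the centromere protector Sgo1 (2.56) and the acetyltransferase Esco2 (2.50), and Mau2 and Esco1 were lower, with differences of -0.52 and -0.40. Of 12 entry kinases and inhibitors 11 were higher, led by the Greatwall kinase Mastl (2.56) and the phosphatase Cdkn3 (2.43). Ensa, a target of Greatwall, was lower at -1.09 ± 0.12 (adjusted p = 6.12e-08). Of the remaining condensin subunits Ncapg2 and Ncapd3 were higher by 1.51 and 0.77, and Ncaph2 was not tested. Of 13 MuvB and DREAM genes 8 were higher and 5 did not pass, against 41.5% of all genes higher, with a median of 0.45, led by Mybl1 (3.80 ± 0.39), the A-Myb gene, and Tfdp1 (1.82), a partner of E2F. Between the spleen genotypes 1 of the 102 was higher, Kif18a, a kinesin of chromosome alignment (0.91 ± 0.21, adjusted p = 0.032), and 1 was lower, Anapc16 (-0.61 ± 0.15, adjusted p = 0.039). These counts were no larger than the shares of all genes, 1.64% higher and 2.16% lower.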

How the data were processed

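RNA of 23 arrays from 22 samples was hybridised to Agilent 1-colour mouse arrays, and the deposited files hold spot intensity from Feature Extraction 10.7.1.1, background-subtracted, per the file headers. The series' value table holds log2 values that, compared with the scanner files, are the same scaled signal centred per probe by the authors. Of each array, 1639 control spots were dropped, leaving 43379, and over all arrays 1556 spots flagged as outliers; saturated spots numbered 0. Spots of a probe were averaged on the log2 scale after subtraction of the array's 75th percentile. Through RefSeq accessions 26690 of 41174 probes had a gene symbol and 14484 had none. A gene was tested if a probe was well above background in at least 6 samples, and the probe with the highest mean stood for it.

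Differences were tested with limma 3.58.1 in R 4.3.3 (package data.table, version 1.17.8), with Benjamini-Hochberg adjustment over 13765 genes and a threshold of 0.05. Lymphoma lines were compared with the spleens in a fit of all 3 groups, and the genotypes in a fit of the 13 spleens with a term for sex. Errors are SE, and intervals are at 95%. The scripts were tested on simulated data. The number of arrays limits the precision. The members were described by role. Group levels were given for Mki67, Top2a, Ccnb1, Cdk1, Plk1, Aurkb, Foxm1 and Mybl2, for the largest and smallest absolute difference of each role between lymphoma lines and KO spleens, for members that did not pass in a lymphoma comparison, for the 4 with the lowest p between genotypes, and for the 3 with the largest and the 3 with the smallest SD among lines. Of each other mitosis list, up to 2 genes with the largest called differences in each direction were named, and the cell markers named were chosen after their values were seen. The members and the lists were chosen with earlier results of these data known. Alternatives were median centring, quantile normalisation, normexp background correction (offset 50, on median signals because mean signals were not among the columns used), the values of the series' table, other filters and probe rules, slide and sex terms, single slides and each sample left out. A fit of single probes was added after the data were seen.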

Additional observations from a re-analysis of the deposited data

Results flagged for a closer look

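In 150 groups of values, 13 held a sample that stood apart from the rest of its group by Dixon's criterion, where chance gives about 1 in 20. The largest share came from lymphoma line 2, which was lowest for Cdk1 at 0.68 (next line 2.14), Mad2l1 at 0.74 (2.02), Ncapd2 at 4.67 (5.54), Smc4 at 3.94 (4.58), Tpx2 at 1.90 (2.76), Nusap1 at 2.07 (2.75) and Cep55 at 1.19 (1.92). WT spleen 2 was highest of the WT spleens for Aurka at 2.84 (next 1.97), Aurkb at -0.52 (-1.22), Foxm1 at 0.24 (-0.48) and Spc25 at 0.30 (-0.60). KO spleen 5 was highest of the KO spleens for Kif23 at 0.91 (next -0.05), and WT spleen 7 was lowest of the WT spleens for Cenpa at -0.92 (next -0.45). These genes are not independent, since the samples concerned were low or high in most of the set.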

How the results depend on the processing

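Over 13 settings other than single slides and left-out samples, 45 to 48 of the 49 genes were higher in the lines than in the KO spleens and 46 to 48 than in the WT spleens, and 0 to 5 were higher in KO than in WT spleens. Median centring raised the median differences to 2.73 and 3.31. Quantile normalisation called 1 gene lower in each lymphoma comparison, Pttg1 (-0.35 and -0.37), whose sign also turned against the KO spleens with normexp (-0.066), against the WT spleens in the value table (-0.0094), and between genotypes without the sex term and in the fit of 3 groups (-0.020 in both). Bub1 turned positive with median centring (0.30 and 0.33), with the mean of its probes (1.09 and 1.49) and, against the WT spleens, with slide as a fixed term (0.14). Between genotypes 1 gene was called higher with a filter asking for every sample of 1 group to be above background, 1 with slide as a random block and 5 without the sex term. Normexp turned Cdc25b (0.18), Cdc25c (-0.28), Ttk (-0.80), Kif11 (-0.15), Kif2c (-0.21), Ndc80 (-0.088), Anln (-0.34) and Cep55 (-0.038) there. Within single slides the median moved to 0.90, 2.81 and 1.68 (slides 3, 4 and 6) against the KO spleens, to 0.89 (slide 3) against the WT spleens, and to 1.05, -0.043, 0.18 and 1.53 (slides 2, 3, 4 and 6) between genotypes. Leaving out each sample gave 45 to 46 genes higher and a median of 1.96 to 2.24 against the KO spleens, 47 to 47 and 2.64 to 2.91 against the WT spleens, and 0 to 2 and 0.52 to 0.73 between genotypes, with 0 lower in each. The cause was not tested for any of these. No paired analysis was possible because the labels give no replicate numbers shared between the groups.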
